A study of Mus musculus with 6 samples.

Results

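The enzymes that build, desaturate and lengthen fatty acids were followed in mouse multiple myeloma cells kept without or with insulin-like growth factor 1 (IGF-1). They were 10 named genes, Acly, Acaca, Fasn, Scd1, Scd2, Elovl1, Elovl5, Elovl6, Fads1 and Fads2, of the 12393 genes that the array annotation names by a single symbol. Every probe set annotated with 1 of these symbols alone was taken, which gave 22 probe sets and at least 1 for each of the 10 genes. Myeloma is a cancer of antibody-secreting plasma cells, and the labels describe the samples as malignant plasma cells from bone marrow. The control group held 3 arrays of cells cultured without serum and without IGF-1, and the IGF-1 group held 3 arrays of cells given 100 ng/ml IGF-1 in the same serum-free culture, both for 12 h. No label names a cell line, a strain or an age, and none says that the replicates came from different animals or cultures, so that p-values measure the spread between these arrays, which may be technical.

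Fatty acids are made in the cytosol from acetyl-CoA. ATP citrate lyase (Acly) releases acetyl-CoA from citrate, acetyl-CoA carboxylase (Acaca) turns it into malonyl-CoA, and fatty acid synthase (Fasn) joins these units into palmitate. In the endoplasmic reticulum the ELOVL elongases lengthen the chain, the stearoyl-CoA desaturases (Scd1, Scd2) put in the first double bond, and Fads2 and Fads1 desaturate the essential fatty acids on the way to polyunsaturated ones. Many of these genes are known targets of the sterol regulatory element-binding proteins (SREBPs).

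With IGF-1, transcripts of 5 of the 10 genes rose: Scd2, Acly, Elovl1, Elovl5 and Fasn. Of all 6895 genes tested, 7.05% rose and 8.05% fell, at an adjusted p (limma) below 0.05. Scd2 had by far the largest difference, with a mean signal 3.21 times that of the controls, and the other 4 had mean signals between 1.38 and 1.73 times the control means. Elovl6 and Fads1 were tested and did not pass by their brightest probe sets. Acaca, Scd1 and Fads2 lay below the signal filter, and 0 genes fell (0 also at an unadjusted p below 0.05, limma). A gene is represented here by its brightest probe set. A probe set was tested when its mean signal over the 6 arrays was above 53.6, which 15 of the 22 probe sets were, from 7 of the 10 genes. Of the 15 tested probe sets of the enzymes, 10 rose, 0 fell and 5 did not pass, where 6.82% of all 11313 tested probe sets rose. In all 15 the 3 IGF-1 arrays lay above the 3 control arrays, as they did in 16.1% of all probe sets tested. A filter on the mean favours probe sets that are high in 1 group, and 1 of the 15 (an Elovl6 probe set, below) passed it through the IGF-1 arrays alone, so these counts are a description. The median log2 difference of the 7 tested genes was 0.55, from 0.30 to 1.65, beside a median of -0.01 over all tested genes, whose 5th and 95th percentiles were -0.55 and 0.47.

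**Figure D1:**
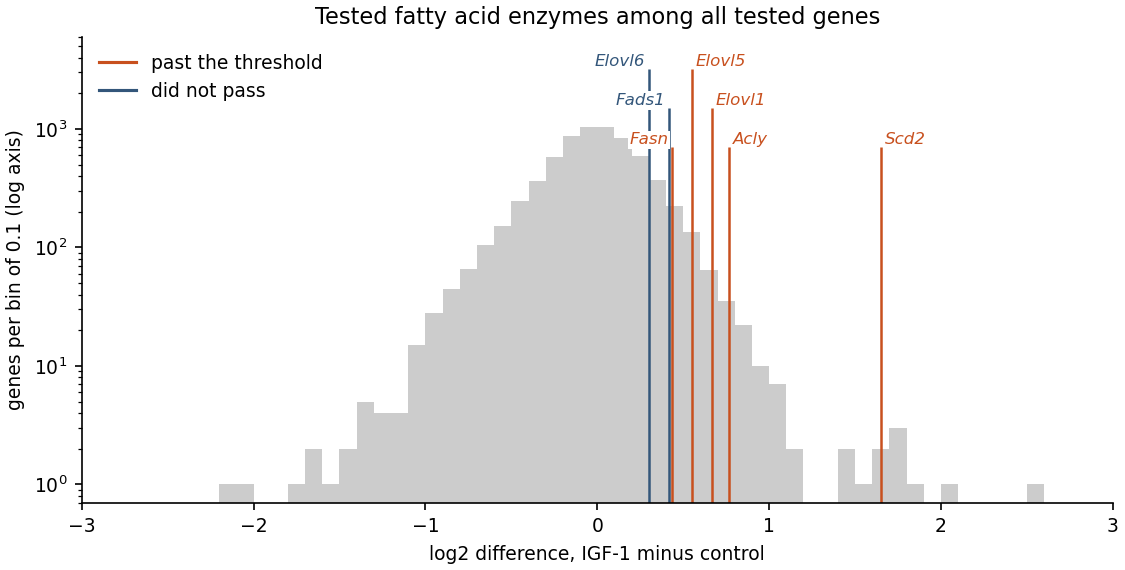
Log2 differences (IGF-1 minus control, x axis) of the 7 tested fatty acid enzyme genes as lines, over a histogram of all 6895 tested genes (grey, genes per bin on a log axis). The 7 lines run from 0.30 for Elovl6 to 1.65 for Scd2, to the right of the median of all genes at -0.01.

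Facts of the arrays that touch these results are few. Signals were scaled by the authors to a common trimmed mean, and array medians lay between 50.0 and 55.4. Arrays of the same group correlated at 0.978 to 0.984 and arrays of different groups at 0.956 to 0.965 (Pearson, log2 signals). When arrays were scaled instead to 9 spiked hybridization controls, the median log2 difference of all tested probe sets moved from -0.01 to 0.30, and the share of calls that were rises moved from 45.2% to 94.7%. With that scaling 3562 of all 11313 tested probe sets rose and 201 fell. Changes are therefore relative to the bulk of the transcripts, and the 7 tested enzymes were higher under both scalings. Plasma cell markers gave clear signal, with 7 of 8 listed genes measured and all 7 above the filter. Of these 7, 2 fell (Tnfrsf17 and Slamf7) and 0 rose (4 lower and 0 higher at an unadjusted p below 0.05, limma), and their summed signal was 11290 to 12220 in control and 10440 to 10880 in IGF-1 arrays. Myeloid transcripts were also present, and the 8 neutrophil markers had a larger summed signal than the 7 plasma cell markers. Of 8 tested neutrophil markers 1 fell and 0 rose (4 lower and 0 higher at an unadjusted p below 0.05, limma). Their summed signal was 23110 to 27310 in control and 21250 to 23460 in IGF-1 arrays. Of 6 tested macrophage and monocyte markers 3 fell and 1 rose (3 lower and 1 higher at the unadjusted p, limma), with summed signals of 5571 to 7287 and 4780 to 6500. Over all tested genes 7.05% rose and 8.05% fell. Under scaling to the hybridization controls the falls of Tnfrsf17, Slamf7, Ltf, Itgam and Cd14 no longer passed. With that scaling Csf1r still fell (-0.70, adjusted p = 0.011, limma) and Cd68 still rose (0.75, adjusted p = 0.000443). There 2 of the 7 tested plasma cell markers (Sdc1 and Jchain) rose, beside 3562 of all 11313 tested probe sets. No measured marker of either type was at 0. T cell markers were dim, with 0 of 5 above the filter (summed signal 91.7 to 131 in control and 92.3 to 112 in IGF-1 arrays). Of 4 erythroid and 4 stromal markers, 1 each was tested and neither passed (summed signals 158 to 249 and 133 to 218 for erythroid, 120 to 152 and 148 to 190 for stromal, control before IGF-1). The part of these cells in the results below was not tested, and in such bulk RNA fewer cells of a type and less RNA per cell cannot be told apart.

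Sequence around the start of 4 of the 5 genes that rose is shown so that the motifs named here can be seen. The RefSeq promoter table (GRCm38.p6; 250 bases before to 50 bases after the start) held 8 promoters from 7 of the 10 genes, with no entry for Scd1, Scd2 and Fads1. Capitals mark CCAAT (the NF-Y box), GGGCGG (the GC box bound by Sp1) and CACGTG (an E-box), each searched on both strands. The sequences run 5′ to 3′ on the strand of the gene.
Fasn, chr11:120824498-120824797, minus strand: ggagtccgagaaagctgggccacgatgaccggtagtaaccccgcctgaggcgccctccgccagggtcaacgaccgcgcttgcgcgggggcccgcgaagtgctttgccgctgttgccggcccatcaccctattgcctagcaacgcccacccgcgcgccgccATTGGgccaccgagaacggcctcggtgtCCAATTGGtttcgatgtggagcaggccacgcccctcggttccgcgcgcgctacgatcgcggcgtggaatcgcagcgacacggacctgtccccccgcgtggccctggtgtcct
Acly, chr11:100527951-100528250, minus strand: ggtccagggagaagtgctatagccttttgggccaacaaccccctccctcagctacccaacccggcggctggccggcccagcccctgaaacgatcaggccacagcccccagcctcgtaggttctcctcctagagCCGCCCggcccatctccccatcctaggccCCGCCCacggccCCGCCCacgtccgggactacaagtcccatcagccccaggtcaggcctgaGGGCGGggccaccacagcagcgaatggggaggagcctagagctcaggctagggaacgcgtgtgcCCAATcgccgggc
Elovl1, chr4:118427843-118428142, plus strand: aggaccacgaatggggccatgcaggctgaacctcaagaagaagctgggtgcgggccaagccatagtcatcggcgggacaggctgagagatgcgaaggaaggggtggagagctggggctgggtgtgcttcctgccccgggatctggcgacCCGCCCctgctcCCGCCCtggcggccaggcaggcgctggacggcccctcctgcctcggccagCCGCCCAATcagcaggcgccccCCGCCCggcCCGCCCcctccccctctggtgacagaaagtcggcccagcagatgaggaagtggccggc
Elovl5, chr9:77917115-77917414, plus strand: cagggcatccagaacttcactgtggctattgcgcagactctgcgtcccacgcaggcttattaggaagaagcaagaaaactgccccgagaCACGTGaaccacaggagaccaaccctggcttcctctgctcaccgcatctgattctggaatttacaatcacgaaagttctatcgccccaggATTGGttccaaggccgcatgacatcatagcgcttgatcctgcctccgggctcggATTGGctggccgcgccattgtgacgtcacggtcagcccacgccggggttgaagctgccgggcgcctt
Fasn held 3 CCAAT boxes, the most upstream with its first base at -90 and the other two overlapping each other at -62 and -59. Elovl5 held CCAAT boxes at -71 and -17 and an E-box at -161. Acly held 4 GC boxes between -117 and -27 and a CCAAT box at 38. The Elovl1 promoter shown held 5 GC boxes between -101 and -8, of which the one at -39 overlaps a CCAAT box at -35. A further Elovl1 promoter, not shown, held 2 GC boxes and counts separately among the 8. Of the 8 promoters of the enzymes, 4 held CCAAT, as did 37.4% of the 32851 promoters in the table, and 4 held GGGCGG, as did 35.7%. An E-box was in 1 of 8 (7.15% of all), and the sterol regulatory element in the exact form TCACCCCAC was in 0 of 8 (0.551% of all), which says only that these letters are not in these windows.

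Scd2, 1 of the mouse stearoyl-CoA desaturases that make oleate and palmitoleate, was the enzyme with the largest rise. Its brightest probe set gave signals of 509, 530 and 524 in the control arrays and 1605, 1731 and 1681 in the IGF-1 arrays. The controls differed from each other by far less than the gap to the lowest IGF-1 array. Log2 differences are on the scale of log2(signal + 15.6), where 15.6 is the pseudocount, which shrinks differences at low signal. For this probe set the difference was 1.65 ± 0.08 (SE, n = 3 and 3, adjusted p = 6.92e-06, limma). By size of rise Scd2 ranked 8 of 6895 genes. Both other probe sets of Scd2 gave larger differences. In the second, signals were 255, 205 and 192 without and 949, 805 and 933 with IGF-1, a log2 difference of 1.97 ± 0.12 (adjusted p = 1.08e-05). In the third they were 92.3, 84.6 and 95.7 without and 363, 344 and 337 with IGF-1, a difference of 1.77 ± 0.10 (adjusted p = 7.29e-06). The 95% intervals of the 3 probe sets overlapped, running from 1.47 to 2.24 in all.

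Scd1, the desaturase best known from liver and fat tissue, gave little signal. Its brighter probe set read 46.4, 32.6 and 41.3 in control and 49.8, 55.3 and 66.6 in IGF-1 arrays. The groups did not overlap, but the mean over 6 arrays (48.7) was just under the filter. The log2 difference was 0.39, and with no filter applied it had an adjusted p of 0.28. The dimmer probe set had mean signals of 17.8 ± 5.96 and 22.2 ± 6.17 (SD, n = 3) and its groups overlapped. Within each array, the log2 ratio of the Scd2 to the Scd1 signal (both with the pseudocount of 15.6) was 3.08, 3.50 and 3.25 in control and 4.63, 4.62 and 4.37 in IGF-1 arrays. Every IGF-1 array was above every control array, and the ratio differed by 1.26 ± 0.15 (log2, SE) between the groups. Since Scd1 lay below the filter, the size of this difference is imprecise, and Scd1 itself is not shown to have changed. The exact permutation test over arrays gave p = 0.1, the smallest two-sided p that 3 against 3 arrays allow (0.333 adjusted over the 5 pairs compared), so the design could not place this pair past the threshold.

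**Figure D2:**
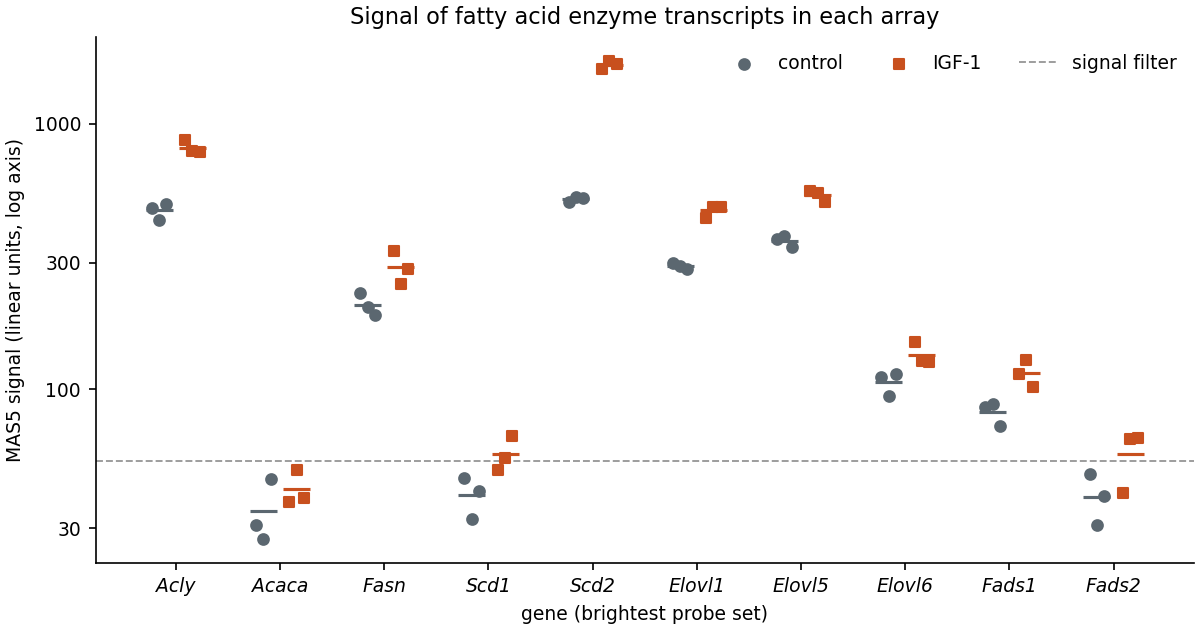
Signal of each of the 10 genes (brightest probe set, y axis on a log scale) in the 3 control arrays (grey circles) and the 3 IGF-1 arrays (orange squares), with group means as short lines and the signal filter of 53.6 dashed. Scd2 stands furthest apart, and Acaca and Fads2 overlap between groups.

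Acly, which supplies the acetyl-CoA, showed the next largest rise. Its brightest probe set read 483, 436 and 497 in control arrays and 866, 791 and 786 in IGF-1 arrays, a ratio of means of 1.73. The gap between the groups was larger than the range within either. The log2 difference was 0.77 ± 0.09 (adjusted p = 0.000914, limma). Of the other probe sets, one gave 159, 139 and 189 against 299, 260 and 287 (0.75 ± 0.12, adjusted p = 0.00416). Another gave 374, 284 and 373 against 522, 494 and 497 (0.54 ± 0.12, adjusted p = 0.0132). These 3 tested probe sets of Acly rose, and all stayed past the threshold without any 1 array. The remaining 2 had mean signals of 5.12 to 10.6 in either group, too low to be tested, and the groups of 1 of them overlapped.

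Acaca, the carboxylase that commits acetyl-CoA to fatty acids, was measured by 1 dim probe set. Signals were 30.9, 27.3 and 45.9 in control and 37.5, 49.5 and 39.0 in IGF-1 arrays. The groups overlapped, with the brightest control array above 2 of the 3 IGF-1 arrays. The log2 difference was 0.21 (adjusted p = 0.64 with no filter applied), and at this signal a modest difference was not detectable.

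Fasn, the multienzyme that makes palmitate, read 230, 204 and 191 in control and 331, 249 and 284 in IGF-1 arrays, with 1 probe set on the array. All IGF-1 arrays were above all controls, but the lowest of them (249) was close to the highest control (230). The log2 difference was 0.43 ± 0.12 with a 95% interval of 0.16 to 0.71 (adjusted p = 0.0413, limma). The rise of Fasn lost its call when control 2 or 3, or array 1 or 3 of the IGF-1 group, was left out (adjusted p up to 0.12), and also with no filter (adjusted p = 0.0937) or without the intensity trend in eBayes (adjusted p = 0.0572).

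Elovl1 lengthens saturated and monounsaturated very long chains. Its brightest probe set read 299, 290 and 284 in control and 443, 487 and 487 in IGF-1 arrays. The controls lay close together and all IGF-1 arrays were well above them. The log2 difference was 0.67 ± 0.09 (adjusted p = 0.0017, limma). Both dimmer probe sets, whose suffix _x_at marks possible binding to other transcripts, moved less. One read 258, 266 and 251 against 299, 306 and 328 (0.25 ± 0.09, adjusted p = 0.0981). The last one read 199, 212 and 195 against 235, 249 and 298 (0.34 ± 0.11, adjusted p = 0.0712). Neither passed, so the probe sets of Elovl1 disagree in size though not in sign.

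Elovl5 acts on polyunsaturated chains. Its brighter probe set, whose suffix marks possible binding to other transcripts, read 367, 377 and 342 in control and 560, 548 and 508 in IGF-1 arrays. All 3 treated arrays were above the controls, with a log2 difference of 0.55 ± 0.09 (adjusted p = 0.00436, limma). The dimmer one read 281, 240 and 289 against 361, 341 and 321. Its groups did not overlap either, but the difference of 0.32 ± 0.11 did not pass (adjusted p = 0.0665, 95% interval 0.09 to 0.56). Without probe sets of suffix _x_at, _s_at or _a_at, Elovl5 was represented by this dimmer one and lost its call (adjusted p = 0.0621), while Elovl1 had no probe set left.

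Elovl6 lengthens palmitate to stearate. Its brighter probe set read 111, 94.4 and 114 in control and 151, 128 and 127 in IGF-1 arrays. The groups were apart, but the difference of 0.30 ± 0.12 did not pass (adjusted p = 0.133, limma, 95% interval 0.02 to 0.58). The other probe set read 41.7, 48.6 and 39.9 in control and 80.3, 80.6 and 58.0 in IGF-1 arrays. All 3 controls were under the filter, and the mean of 58.2 over 6 arrays was just above it. Its log2 difference was 0.58 ± 0.16 (adjusted p = 0.0374), a call that rests on a probe set tested only because the IGF-1 arrays raised its mean. With no filter the call was lost (adjusted p = 0.1), as it was without any 1 array but IGF-1 3 (highest adjusted p 0.124).

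**Figure D3:**
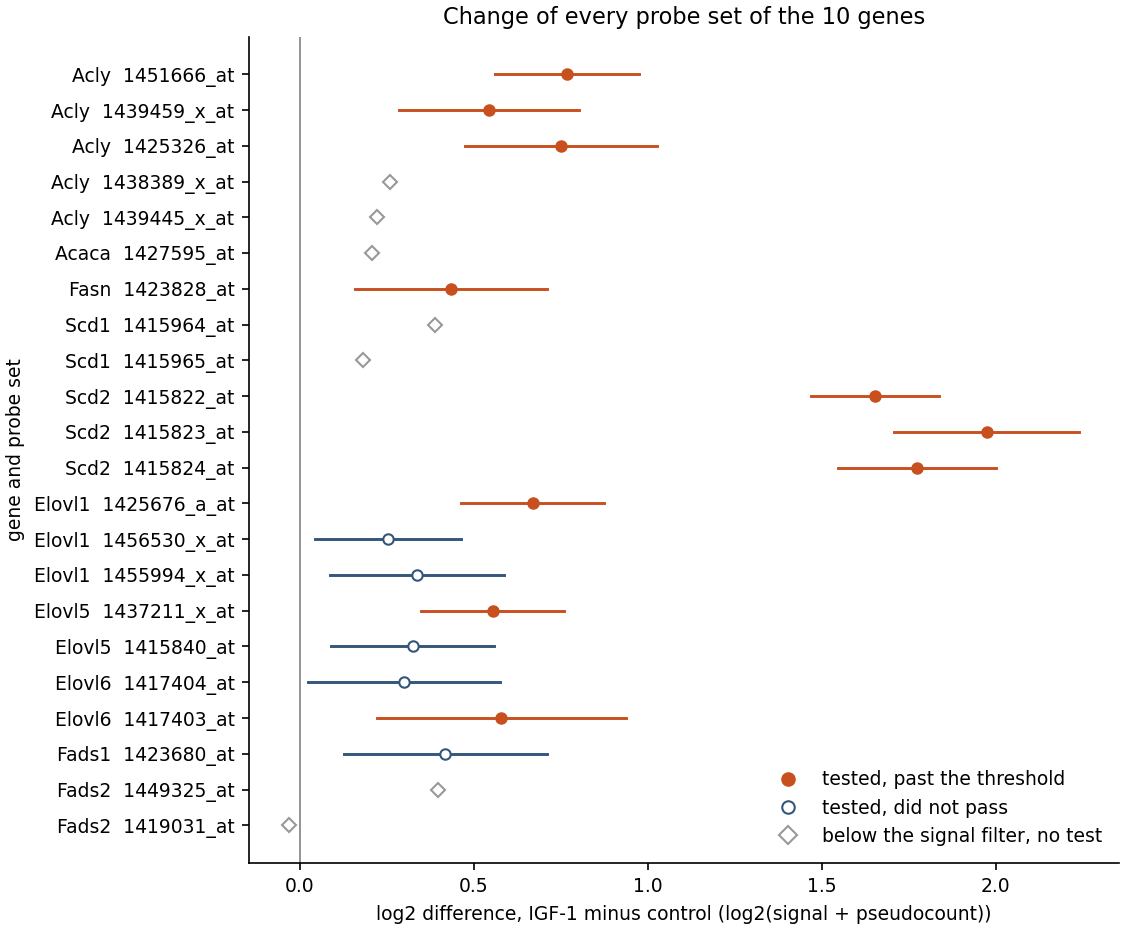
Log2 difference (IGF-1 minus control, x axis) of each of the 22 probe sets of the 10 genes, with 95% intervals for the 15 that were tested. Filled circles passed the threshold, open circles did not, and diamonds lay below the signal filter and have no interval. Only the dimmer Fads2 probe set lies left of 0, at -0.03.

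Fads1, the desaturase of the later step towards arachidonic acid, read 85.6, 87.8 and 72.8 in control and 114, 129 and 102 in IGF-1 arrays. All IGF-1 arrays were above all control arrays. The log2 difference of 0.42 ± 0.13 narrowly missed the threshold (adjusted p = 0.0584, limma, 95% interval 0.13 to 0.71), with an adjusted p of 0.127 with no filter and 0.0716 to 0.185 with 1 array left out. It passed with quantile normalization (adjusted p = 0.0442) and without the intensity trend (0.049). Fads2, which opens the same pathway, lay below the filter. Its brighter probe set read 47.9, 30.7 and 39.5 in control and 40.7, 65.1 and 65.6 in IGF-1 arrays. Here IGF-1 1 fell among the controls and the other two were above them, and the log2 difference was 0.40 (adjusted p = 0.37 with no filter). The dimmer probe set had means of 20.9 ± 4.86 and 20.1 ± 4.67 (SD, n = 3).

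Among the elongases and the Fads pair, changes were compared within each array, each gene by its brightest probe set. Elovl1 changed by 0.12 ± 0.08 (log2, SE) more than Elovl5 (exact permutation p = 0.3), by 0.37 ± 0.14 more than Elovl6 (exact p = 0.2), and Elovl5 by 0.25 ± 0.12 more than Elovl6 (exact p = 0.2). In each of these pairs the arrays of the groups overlapped. Fads2 changed by -0.02 ± 0.25 relative to Fads1 (exact p = 0.9), with a spread between arrays far larger than the difference. Adjusted over the 5 pairs, the values were 0.333 to 0.9, and no order among the elongases or between Fads1 and Fads2 was resolved. With tested probe sets averaged per gene, the log2 differences of Elovl1, Elovl5 and Elovl6 were 0.42, 0.44 and 0.44. The Elovl6 average includes the probe set that only the IGF-1 arrays lifted over the filter.

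**Figure D4:**
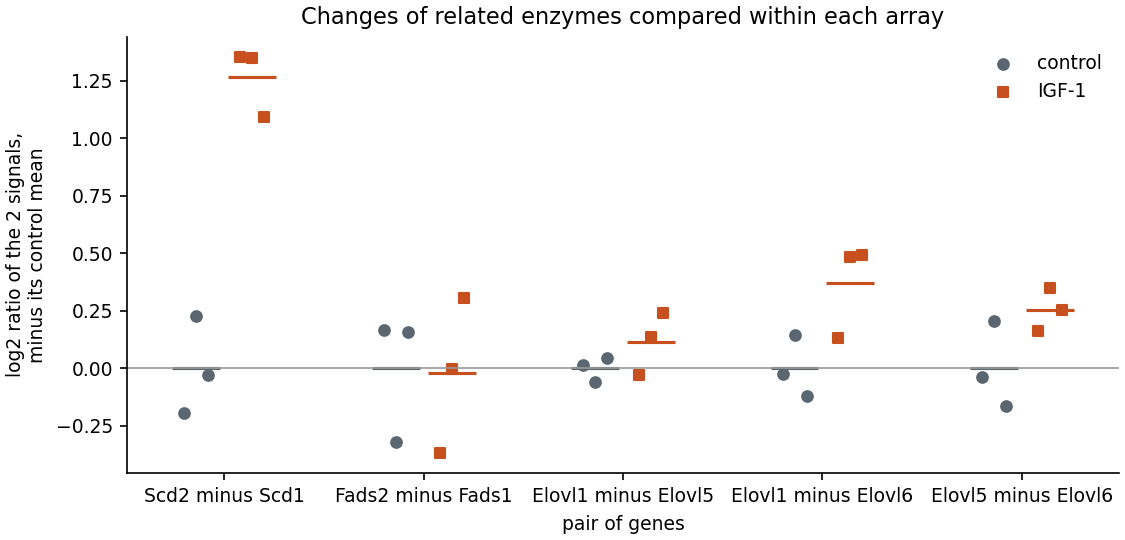
Log2 ratio of the signals of 2 related enzymes in each array, shown relative to its control mean (y axis), for 5 pairs of genes. Grey circles are control arrays, orange squares are IGF-1 arrays and short lines are means. Only for Scd2 against Scd1, at 1.26, are the groups apart.

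Over the 7 tested enzymes, the mean log2 profile (each gene centred on its own mean) was -0.30, -0.36 and -0.37 in the control arrays and 0.39, 0.34 and 0.30 in the IGF-1 arrays. The genes outside the enzymes whose signal followed this profile most closely were Dhcr7 (r = 0.998), Cyp51 (0.998), Nfe2l1 (0.996), Uqcrb (0.996) and Idi1 (0.996), each over 6 arrays that fall into the 2 groups. Dhcr7, Cyp51 and Idi1 encode enzymes of cholesterol synthesis, Nfe2l1 a transcription factor and Uqcrb a subunit of respiratory complex III. Their log2 differences were 1.77, 1.77, 0.83, 0.37 and 1.69. Over all other genes tested the median r was -0.03, and 20 genes had an r of at least 0.99, so the order at the top is a fine one.

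Other genes of fatty acid metabolism, taken from 5 lists of 78 genes, moved in both directions. Among 49 tested, there were 9 rises and 6 falls, and 34 genes missed the threshold, beside the 7.05% and 8.05% of all genes. Under scaling to the hybridization controls 22 rose and 1 fell, where 3562 of all 11313 tested probe sets rose and 201 fell. Among the regulators, Srebf2, the SREBP best known for cholesterol synthesis genes, rose from 597 ± 18.2 to 1075 ± 146 (SD, n = 3; log2 difference 0.82 ± 0.11, adjusted p = 0.00124, limma). It was the only 1 of 8 tested regulators to pass under the authors' scaling, in both of its probe sets and without any 1 array. Srebf1, the SREBP best known for fatty acid synthesis genes, read 321, 345 and 371 in control and 334, 419 and 397 in IGF-1 arrays, which overlap (0.14 ± 0.11, adjusted p = 0.444). Under scaling to the hybridization controls Srebf1 did pass (0.46, adjusted p = 0.0277), and 4 of the 8 regulators rose. Mid1ip1, a partner of acetyl-CoA carboxylase, had a difference of -0.19 ± 0.14 (adjusted p = 0.386), which was 0.11 under scaling to the hybridization controls. Insig1 was not analysed here.

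Of 12 other tested enzymes of synthesis, desaturation and elongation, 3 rose, 1 fell and 8 did not pass, with a list median of 0.16. Over all tested genes 7.05% rose and 8.05% fell. Hsd17b12, the ketoreductase of the elongation cycle, rose from 624 ± 46.5 to 905 ± 66.9 (0.52 ± 0.10, adjusted p = 0.00669, limma) in both of its probe sets. Cyb5a, the cytochrome that passes electrons to desaturases, rose by 0.42 ± 0.10, and Hacd1, a dehydratase of the elongation cycle, by 0.49 ± 0.15. The related Hacd4 fell from 185 ± 38.2 to 102 ± 21.9 (-0.76 ± 0.17, adjusted p = 0.0152). The calls of Cyb5a, Hacd1 and Hacd4 were lost with 1 array left out. That array was control 1, 2 or 3 or IGF-1 1 for Cyb5a (highest adjusted p 0.0687), any but control 1 for Hacd1 (0.136), and control 3 or IGF-1 1 or 2 for Hacd4 (0.0513). Of 4 tested suppliers of cytosolic acetyl-CoA and NADPH, 0 rose and 0 fell by their brightest probe sets (1 higher and 1 lower at an unadjusted p below 0.05, limma), with a median of 0.07. The lower one was Idh1, an NADPH source (-0.71 ± 0.28, adjusted p = 0.117), whose dimmer probe set did fall (-0.83 ± 0.14, adjusted p = 0.00509). The higher one was Me1 (0.34 ± 0.13, adjusted p = 0.112, limma). Under scaling to the hybridization controls 2 of the 4 rose (Me1 and Acss2) and 0 fell by their brightest probe sets. With that scaling 3562 of all 11313 tested probe sets rose and 201 fell. Idh1, Me1 and Acss2 are named outside the rule, after their values were seen.

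Genes of fatty acid activation and esterification rose in 5 of 12 tested cases, fell in 2 and did not pass in 5 (median 0.31). The shares over all tested genes were 7.05% for rises and 8.05% for falls. The lipins, which make diacylglycerol, moved apart. Lpin1 rose from 136 ± 14.9 to 262 ± 27.4 (0.87 ± 0.12, adjusted p = 0.00165, limma) in both probe sets, while Lpin2 fell from 1254 ± 29.9 to 810 ± 5.26 (-0.62 ± 0.08, adjusted p = 0.00126) in all 3. Lpcat1, a lysophospholipid acyltransferase, rose by 0.77 ± 0.13 in 1 of 2 tested probe sets, and Acsl4, which activates arachidonic acid, by 0.56 ± 0.15. Outside the naming rule, and named after their values were seen, Agpat3 and Dbi also rose and Dgat1 fell (0.46, 0.38 and -0.44), Dbi in 1 of 4 tested probe sets. Without 1 array the calls were lost for Acsl4 (any but control 2), Agpat3 (any but control 3), Dbi (control 3, IGF-1 2 or 3) and Dgat1 (any but control 1) (highest adjusted p 0.109, 0.0964, 0.0736 and 0.114). Under scaling to the hybridization controls the falls of Hacd4, Lpin2 and Dgat1 no longer passed (-0.46, -0.29 and -0.11; adjusted p = 0.0688, 0.0948 and 0.607).

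Beta-oxidation, which burns fatty acids in mitochondria, had 0 rises and 3 falls among 13 tested genes (1 higher and 4 lower at an unadjusted p below 0.05, limma), with a median of -0.04. Beside this, 7.05% of all tested genes rose and 8.05% fell. Cpt1a, the gatekeeper of fatty acid entry into mitochondria, read 498, 510 and 504 in control and 204, 249 and 322 in IGF-1 arrays. Of its 3 probe sets only this 1 lay above the filter. Every treated array was far below the controls, which lay close together. The log2 difference was -0.95 ± 0.14 (adjusted p = 0.00267, limma), and it was -0.62 with the hybridization controls (adjusted p = 0.0091). Slc25a20, the carnitine carrier that acts next, fell from 157 ± 6.98 to 86.2 ± 28.9 (-0.80 ± 0.18, adjusted p = 0.015) in 1 of 2 probe sets, a call that needed both array 1 and array 2 of the IGF-1 group (adjusted p up to 0.055). Acadvl, a dehydrogenase of very long chains, fell by 0.50 on the log2 scale (adjusted p = 0.00635). Neither of these falls passed under scaling to the hybridization controls (-0.50 and -0.16, adjusted p = 0.0554 and 0.342). With that scaling the list had 3 rises and 1 fall: Acadl, Acads and Echs1, which act within the beta-oxidation cycle, rose (0.50, 0.66 and 0.47; adjusted p = 0.00773, 0.00319 and 0.0244) and Cpt1a alone fell. These 3 genes are named after their values were seen, and rises were common with that scaling (3562 of all 11313 tested probe sets, with 201 falls).

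**Figure D5:**
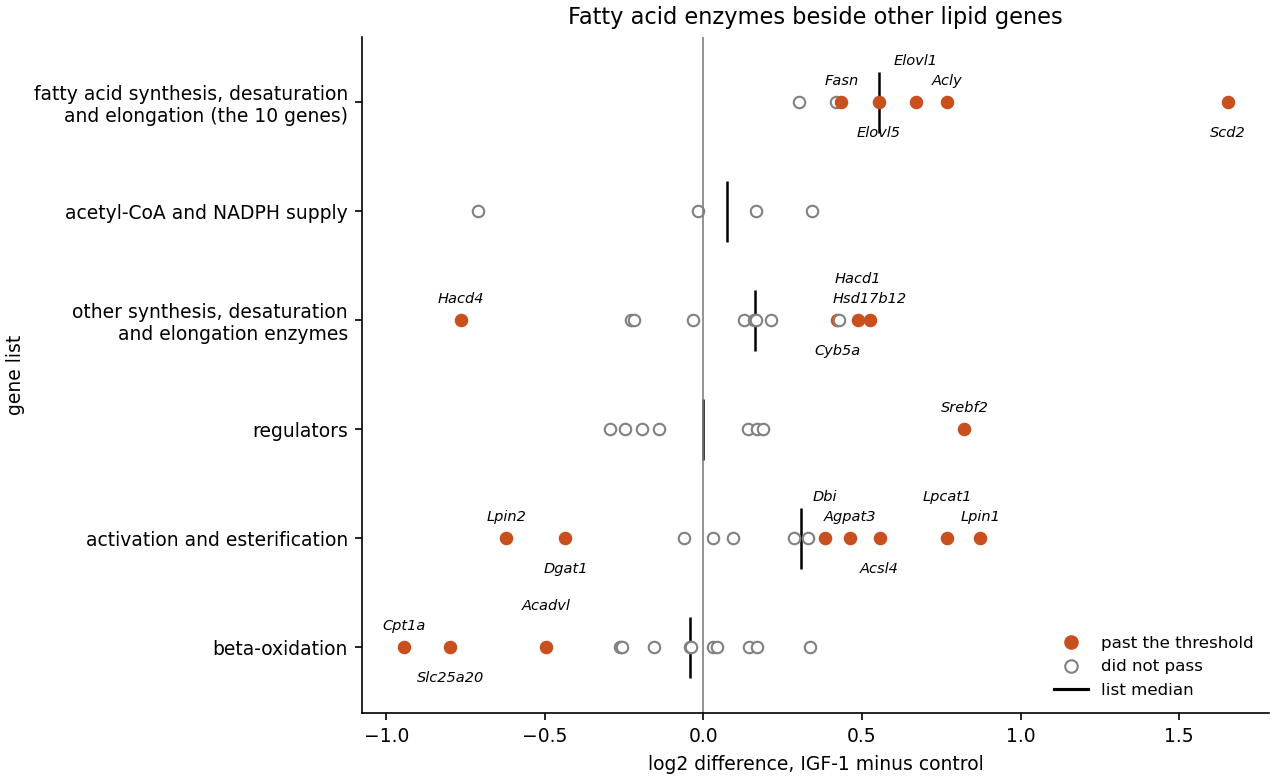
Log2 difference (IGF-1 minus control, x axis) of each tested gene in the fatty acid enzymes and in 5 lists of other lipid genes, 1 row per list. Filled circles passed the threshold and are named, open circles did not, and black ticks are medians. The enzymes have a median of 0.55 and beta-oxidation one of -0.04, with Cpt1a lowest at -0.95.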

How the data were processed

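RNA of 6 samples, 3 control and 3 IGF-1, was measured on 1 Affymetrix array each. The deposited table holds 22690 probe sets as linear intensity signals, which the authors made using GCOS and its MAS5 algorithm (per the submitters' processing notes, without versions); each array's mean with 2% trimmed at each end was 150.1. As a method, MAS5 corrects perfect-match probes for mismatch signal, which makes dim values noisy. Arrays carry no counts, and their number limits the precision.

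From there, log2(signal + 15.6) was fitted with limma 3.58.1 in R 4.3.3 (lmFit, eBayes with an intensity trend). The pseudocount was the 25th percentile of all signals. The 11313 probe sets with a mean above the median (53.6) were tested, leaving out 64 control probe sets, and p-values were adjusted by Benjamini-Hochberg over all of them with a threshold of 0.05. Genes came from the platform annotation: 20380 probe sets have 1 symbol, 691 several and 1555 none, and only the first kind was named. A gene stands for its brightest tested probe set. Pairs of related enzymes were compared per array by exact permutation. The code was tested on simulated data. Figures and summaries used Python 3.11.15.

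Named were all 10 enzymes, up to 4 called genes per lipid list with the largest log2 difference, Srebf1, Srebf2, Insig1 and Mid1ip1, and the 5 genes most like the mean profile. The enzymes and lists were chosen with earlier results of these data known. No label says that replicate numbers pair arrays, so they were not taken to do so. Residuals of same-numbered arrays correlated at 0.12, -0.03 and 0.13, and those of differently numbered arrays at -0.15 to 0.03. These values do not settle whether arrays were paired. Alternatives were other pseudocounts, filters, normalizations, eBayes settings, array weights, probe set choices, a replicate block and leaving out each array.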

Additional observations from a re-analysis of the deposited data

How the results depend on the processing

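The count of 1709 probe sets called among all tested became 946 with no filter, 1116 without probe sets of suffix _x_at, _s_at or _a_at, 897 to 1451 with 1 array left out (897 without IGF-1 2, 954 without control 2, 1050 without IGF-1 3), and 3763 under scaling to the hybridization controls; an average over probe sets gives no count of probe sets. The count of 5 enzymes became 3 without the suffixed probe sets (Elovl1 was not tested then and Elovl5 did not pass), 4 with no filter, 4 to 5 with 1 array left out, 5 without the intensity trend (Fads1 in place of Fasn), 6 with quantile normalization, and 7 with probe sets averaged per gene (Elovl6 then through the probe set that only the IGF-1 arrays lifted over the filter) or with hybridization controls. Beside these, 474 of all 7076 probe sets tested rose without the suffixed ones and 448 of 22626 with no filter. Of 11313 tested, 651 rose without the intensity trend, 819 with quantile normalization and 3562 with hybridization controls. Averaged per gene, 555 of 6895 genes rose. The 15 calls among other lipid genes became 9 with no filter (Hacd1, Hacd4, Acsl4, Agpat3, Dgat1 and Slc25a20 lost), 23 with hybridization controls and 9 to 13 with 1 array left out (9 without control 3, IGF-1 1 or IGF-1 2). With probe sets averaged per gene there were 20, with 12 rises and 8 falls (Acads, Acsl5, Agpat1, Hadhb, Idh1 and Tecr gained, Dbi lost). With a replicate block the counts were 1732 probe sets, 5 enzymes and 16 other lipid genes. The change of Fads2 relative to Fads1 turned to 0.035 with a pseudocount of 1 and ran from -0.19 to 0.15 with 1 array left out. For changes not set by the number of probe sets or arrays, the cause was not tested. Dim signal limits Acaca, Scd1 and Fads2.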
